A study of Mus musculus with 4 samples.

Results

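Histone genes are described here by where they met peaks of PHF2, a chromatin regulator whose PHD finger reads methylated histone H3 and whose JmjC domain belongs to the demethylase family. The members were the protein-coding genes of a RefSeq table whose symbols begin with H1f, H2ac, H2bc, H3c, H4c, H2az, H2af or H3f3, followed by a digit or letter. The rule found 72 genes of 21887, and no symbol beginning with H2af was among them. A member was counted if the distance from a peak to either end of its annotated gene was at most 1 kb. Members comprised 10 linker histone H1 genes, 19 H2A, 16 H2B, 15 H3 and 12 H4 genes.

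The assay was CUT&RUN, which tethers a nuclease to antibody-bound chromatin and sequences the DNA set free, and the tissue was gastrocnemius muscle from male C57BL/6 mice aged 4 weeks. All mice carried Phf2 flox/flox. Ctrl muscle was Acta1 Cre- and KO muscle Acta1 Cre+, a Cre driven by the skeletal actin gene and active in muscle fibres, so that other cells of the muscle keep Phf2. Both genotypes have 1 library made with anti-PHF2 and 1 made with IgG, which gives the background. The libraries are bulk, so the cells that gave a peak cannot be told apart, and peak lists hold no expression levels to check the tissue label.

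Core histones H2A, H2B, H3 and H4 form the nucleosome, and linker histone H1 binds where DNA enters and leaves it. Replication-dependent histone genes are short, lie in clusters, are transcribed mainly in S phase and give messages that end in a stem-loop in place of a poly(A) tail. Replacement histones, such as H3.3 and H2A.Z, come from single genes that are transcribed throughout the cell cycle and supply nuclei that do not divide, such as those of muscle fibres. By symbol 63 members were replication-dependent and 9 were replacement genes.

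In the Ctrl PHF2 list, 10 of the 72 histone genes had a peak within 1 kb of an end (13.9%, Wilson 95% interval 7.72 to 23.7). The share over all 21887 protein-coding genes was 5.6%. These 10 genes met only 5 distinct peaks, since histone genes lie close together. Of the 72 members, 51 lay within 2 kb of another member, and joining neighbours whose windows overlapped gave 42 loci, of which 5 had a peak (11.9%, 5.19 to 25). Genes, loci and peaks of 1 library are no replicates, so each share describes that library and its interval covers at most counting error. Genes that share a peak are not independent, so intervals over genes are too narrow even for that. The interval over loci contained 5.6%, though that share was counted over genes and not over loci. Replication-dependent genes had 9 of 63 (14.3%, 7.70 to 25) and replacement genes 1 of 9 (11.1%, 1.99 to 43.5), intervals that overlap widely. The KO PHF2, Ctrl IgG and KO IgG lists had 0 members.

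Ctrl PHF2 had 1621 peaks and KO PHF2 161, while the IgG lists had 77 (Ctrl) and 152 (KO). Fold enrichments are the authors' own, a ratio at the peak summit over the peak caller's local background, and serve to rank peaks within a list. Read totals are unknown, but summit tags of PHF2 peaks could be solved, as whole numbers, from the authors' fold and p. Summit tags ran from 8 to 44 in Ctrl PHF2 (median 15) and from 10 to 27 in KO PHF2 (median 15). At Phf2 itself, within the gene or 1 kb around it, there was 1 peak in KO IgG and 0 in each of the other lists, so peaks do not check the genotype labels.

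The strongest peak at a histone gene was at H3f3a (Gene ID 15078), which encodes the replacement histone H3.3, on chromosome 1 from 180802560 to 180813605 in mm10. The Ctrl PHF2 peak ran from 180812491 to 180813565, a width of 1075 bp, and lay wholly inside the gene, 40 bp from its start. Its fold enrichment was 11.5, rank 38 of 1621, and its summit held 24 tags (95% Poisson interval, exact, 15.4 to 35.7). By width as well as fold it exceeded the other 4 peaks at histone genes.

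The second H3.3 gene, H3f3b (Gene ID 15081, chromosome 11, 116021961 to 116026039), fell outside the count. Its peak, at 116023853 to 116024204, lay inside the gene, 1835 bp from the nearer annotated end. RefSeq places a start of H3f3b at 116024504, however, and the near edge of the peak was 300 bp downstream of it. This peak was weaker than that of H3f3a, with a fold enrichment of 5.96 (rank 1011) and 13 tags (6.92 to 22.2), though the tag intervals of the peaks overlap. Both genes that encode H3.3 in somatic cells thus had a Ctrl PHF2 peak shortly downstream of a RefSeq start. Within the annotated span of H3f3b, the peak lay near the middle, 1835 bp from the upper end and 1892 bp from the lower. When distance was measured to starts in the RefSeq promoter table, in place of gene ends, 2 of 9 replacement genes had a peak, against 6.42% of 17492 genes with such a start. It was also 2 of 9 when a peak anywhere in the gene or within 1 kb of it counted, against 6.88% of all genes.

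Promoter windows of 6 genes with a peak inside them are printed to show the sequence at their starts. They come from RefSeq (GRCm38.p6), run from 250 bases before the start to 50 after it, and read 5′ to 3′ on the gene's strand. Capitals mark the CCAAT box, the TATA box as TATAAA and the octamer as ATTTGCAT, each on either strand; in these windows no marked stretch overlaps another.
H3f3a (chr1:180813556-180813855, minus strand): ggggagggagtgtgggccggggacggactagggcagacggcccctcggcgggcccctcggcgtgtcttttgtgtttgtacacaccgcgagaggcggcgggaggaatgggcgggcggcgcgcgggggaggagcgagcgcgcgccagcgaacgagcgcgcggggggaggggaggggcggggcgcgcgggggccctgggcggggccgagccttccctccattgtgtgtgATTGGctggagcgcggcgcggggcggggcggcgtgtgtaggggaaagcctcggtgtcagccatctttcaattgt
H3f3b (chr11:116024455-116024754, minus strand): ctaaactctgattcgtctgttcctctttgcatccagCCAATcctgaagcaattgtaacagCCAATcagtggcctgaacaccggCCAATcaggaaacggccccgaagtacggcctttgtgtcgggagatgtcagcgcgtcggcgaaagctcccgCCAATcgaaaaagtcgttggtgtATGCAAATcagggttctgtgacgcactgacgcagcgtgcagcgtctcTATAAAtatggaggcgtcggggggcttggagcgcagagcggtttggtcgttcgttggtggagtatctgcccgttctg
H2ac20 (chr3:96220831-96221130, minus strand): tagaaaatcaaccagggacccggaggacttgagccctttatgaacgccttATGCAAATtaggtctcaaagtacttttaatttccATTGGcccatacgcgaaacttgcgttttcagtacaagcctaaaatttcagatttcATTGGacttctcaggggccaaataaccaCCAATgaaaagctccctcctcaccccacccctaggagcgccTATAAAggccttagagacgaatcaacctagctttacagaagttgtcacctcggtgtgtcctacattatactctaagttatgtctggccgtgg
H2ac18 (chr3:96245247-96245546, plus strand): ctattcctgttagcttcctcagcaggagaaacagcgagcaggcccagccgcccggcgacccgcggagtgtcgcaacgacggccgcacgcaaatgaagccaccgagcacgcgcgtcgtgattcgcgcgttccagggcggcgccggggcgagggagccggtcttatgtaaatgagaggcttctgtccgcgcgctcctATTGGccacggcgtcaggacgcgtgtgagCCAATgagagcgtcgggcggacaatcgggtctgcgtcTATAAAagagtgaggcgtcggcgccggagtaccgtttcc
H2ac19 (chr3:96240325-96240624, minus strand): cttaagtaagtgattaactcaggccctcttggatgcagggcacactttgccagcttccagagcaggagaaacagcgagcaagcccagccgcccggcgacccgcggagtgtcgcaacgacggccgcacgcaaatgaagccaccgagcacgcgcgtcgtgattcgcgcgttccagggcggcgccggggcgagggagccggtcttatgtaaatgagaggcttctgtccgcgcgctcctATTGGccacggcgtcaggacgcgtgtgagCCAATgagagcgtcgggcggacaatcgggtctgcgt
H1f4 (chr13:23622509-23622808, minus strand): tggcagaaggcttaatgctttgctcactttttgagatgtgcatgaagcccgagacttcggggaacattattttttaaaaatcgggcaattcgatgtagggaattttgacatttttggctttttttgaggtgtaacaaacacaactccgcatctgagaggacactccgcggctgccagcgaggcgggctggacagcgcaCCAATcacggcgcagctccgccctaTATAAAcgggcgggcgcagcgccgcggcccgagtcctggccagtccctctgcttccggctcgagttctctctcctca
The H3f3a and H3f3b windows differ although the genes encode the same histone. H3f3a had 39 CpG dinucleotides and 1 CCAAT box and matched neither other motif, whereas H3f3b had 24 CpG, 4 CCAAT boxes, a TATA box and an octamer. H2ac20, a replication-dependent gene, had the same 3 kinds of motif as H3f3b, with 9 CpG.

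Of the 7 other replacement genes none had a Ctrl PHF2 peak near. The nearest lay 70.2 kb from H3f3c, 198 kb from the H2A.Z gene H2az1, 624 kb from H2az2, 130 kb from H1f10, 388 kb from the oocyte linker histone gene H1f8, 147 kb from the spermatid gene H1f7 and 824 kb from H1f0, the linker histone gene of differentiated cells. Chromosome 11 held 2 members, H2az2 and H3f3b, which lie far apart. Its small histone group (H2bu2, H2aw and H3f4) has symbols outside the rule.

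The replication-dependent cluster on chromosome 3 held most of the members with a peak. It spans 50.3 kb (96219885 to 96270192) and holds 10 members and no other protein-coding gene of the table. Of these, 7 had a Ctrl PHF2 peak (70.0%, Wilson interval 39.7 to 89.2), through 3 peaks. The other 3, H4c14, H3c13 and H2bc18, lay together at the upper end, 16.5 to 23.3 kb from the nearest peak. Since neighbours share peaks, 7 genes are not 7 independent sites.

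The first peak of the cluster lay inside H2ac20 (Gene ID 319176, 96220413 to 96220880), an H2A gene. It ran from 96220486 to 96220861 and covered 80.3% of the gene, with a fold enrichment of 6.75 (rank 667) and 21 tags (13 to 32.1). It also lay within 1 kb of H2ac21, 132 bp beyond that gene's far end, and of the H2B gene H2bc21, 211 bp from its lower end. Of 1151 Ctrl PHF2 peaks at gene ends, 165 (14.3%) reached 2 or more protein-coding genes, and this was the only 1 to reach 3. H2ac20 and H2bc21 are separated by 192 bp, and the peak stopped 19 bp inside H2ac20, short of that stretch.

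The other 2 peaks lay in H2A genes on opposite strands, each followed by an H3 gene. H2ac19 (Gene ID 319192, minus strand, 96239779 to 96240374) is followed downstream by the H3 gene H3c15, and H2ac18 (Gene ID 15267, plus strand, 96245497 to 96246052) by the H3 gene H3c14. The H2ac19 peak, 96239402 to 96240251, began 123 bp downstream of the start and ended 377 bp past the end of the gene. The H2ac18 peak, 96245621 to 96246400, began 124 bp downstream of the start and ended 348 bp past the end. The annotated starts, however, lie 40 bp apart in the sequence that the 2 promoters share. With this offset carried on past the promoter windows, the near edges differed by 41 bp and the summits by 152 bp. Sequence there was not compared, so these 2 differences assume that the offset stays the same. TATAAA began 11 bp after the annotated start in H2ac18, and a CCAAT box began 14 bp after it in H2ac19. In H3f3b and H1f4 TATAAA began 27 bp before the start, and in H2ac20 42 bp before. Distances from the starts of H2ac18 and H2ac19 thus hold for the annotated starts, whose placement was not tested. The 2 peaks covered 79.4% and 77.7% of their genes and stopped 275 bp before the start of H3c15 and 285 bp before that of H3c14.

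Summit tags were alike at these 2 peaks, 21 (13 to 32.1) in H2ac19 and 20 (12.2 to 30.9) in H2ac18. Fold enrichments were 4.88 (rank 1441) and 6.99 (rank 554). The local background solved with the tags, on the caller's own scale, was 2.0 at H2ac19 and 1.0 at H2ac18, against a genome-wide 0.361. The lower fold at H2ac19 thus went with a higher solved background value, while the tags were alike. These backgrounds have no interval here, so whether they differ beyond counting error was not tested.

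Promoter sequences of these genes are closely alike. Windows of H2ac18 and H2ac19 differed at 11 of 260 bases once shifted by 40 bp, the offset between their annotated starts, and those of H3c14 and H3c15 at 1 of 285 bases. Among 2277 pairs of histone promoter windows, 5 were over 90% identical at their best shift with no gaps, and the median pair was 33.0% identical. How the authors placed reads that match both copies is not given in the sources used here. Both peaks lie outside these windows, over 0 of their bases, and the sequence under the peaks was not analysed here. Whether reads under the 2 peaks could come from either copy was not tested, so the values of both are uncertain. The other pairs over 90%, H2ac23 with H2ac24, H4c17 with H4c18 and H4c11 with H4c12, all on chromosome 13, had no peak within 1 kb.

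**Figure D1:**
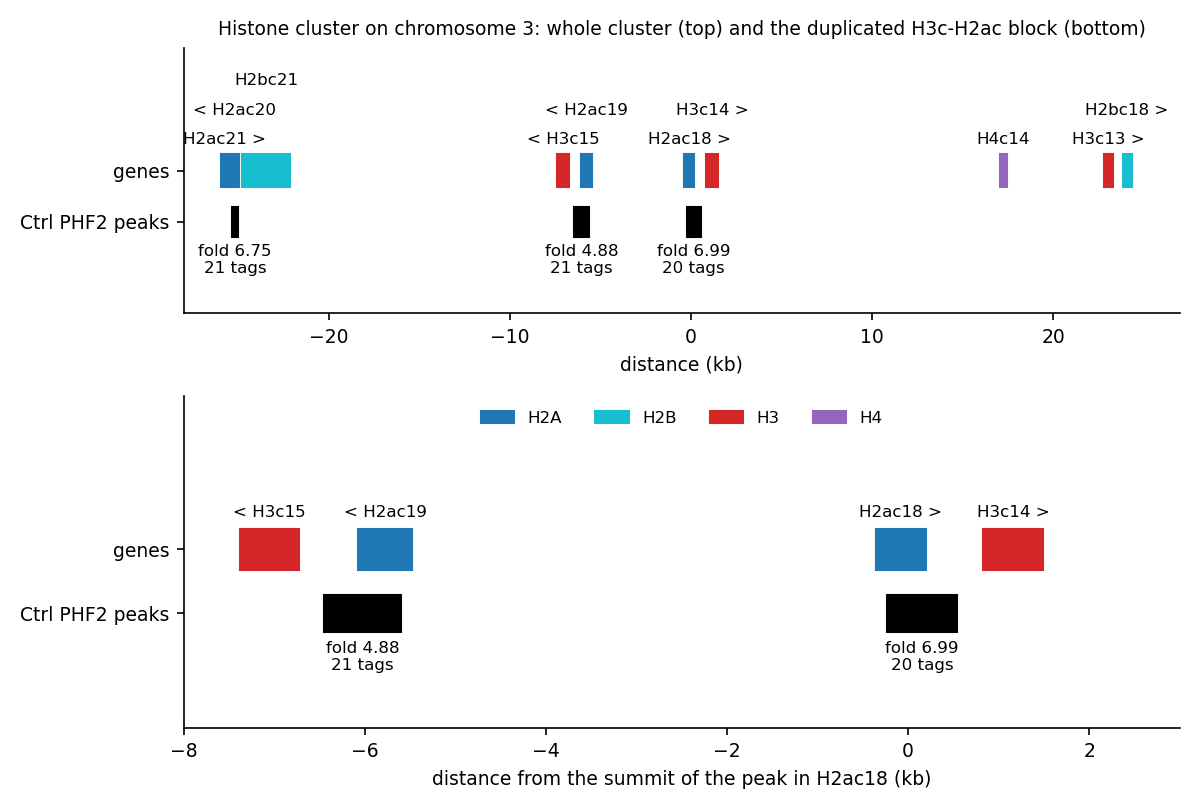
The histone cluster on chromosome 3, with genes coloured by family (arrowheads give the strand where the promoter table holds it) and Ctrl PHF2 peaks as black bars with the authors' fold enrichment and summit tags; the x axis is distance in kb from the summit of the peak in H2ac18. The 3 peaks lie in H2ac20, H2ac19 and H2ac18, and none lies at H4c14, H3c13 or H2bc18.

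Chromosome 13 carries the major histone locus, with 53 of the 63 replication-dependent members, in stretches more than 500 kb apart. The lower stretch (21715711 to 22043658, 328 kb) held 22 members and 0 Ctrl PHF2 peaks (which allows a share of members of up to 13.6%). The nearest peak lay 1.58 to 1.91 Mb away. The upper stretch (23531044 to 23934913, 404 kb) held 31 members and 1 peak, which counted for 2 members (6.45%, Wilson interval 1.79 to 20.7). The share over all protein-coding genes, 5.6%, lay within the limits of both stretches, so neither count could be told apart from it.

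That peak lay inside H1f4 (Gene ID 50709, 23621777 to 23622558), which encodes the linker histone H1.4. It ran from 23622020 to 23622439, covering 53.7% of the gene, with a fold enrichment of 6.44 (rank 788) and 13 tags (6.92 to 22.2). H2bc6, an H2B gene annotated over 37455 bp with its upper end 653 bp from H1f4, counted through the same peak at 896 bp, the largest distance among the 10. The other 29 members of the upper stretch, among them the linker histone genes H1f1, H1f2, H1f3 and the testis gene H1f6, lay 40.1 to 312 kb from a peak. The testis-specific pair H2ac1 and H2bc1 was the most distant of them.

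By family, a Ctrl PHF2 peak within 1 kb was found for 4 of 19 H2A, 3 of 15 H3, 2 of 16 H2B and 1 of 10 H1 genes. H4 had 0 of 12 (a count of 0 allows up to 25%), and its nearest member, H4c14, was 16.5 kb from a peak. The share over all protein-coding genes was 5.6%, so 0 of 12 could not be told apart from that share. With the summit as the point of reference, 3 of the 5 peaks lay in an H2A gene, 1 in an H3 gene and 1 in an H1 gene. The H3c14, H3c15, H2ac21, H2bc21 and H2bc6 counts thus rested on a summit in a neighbour. Apart from H3f3b, the 62 members without a peak lay 16.5 kb or more from one, with a median of 139 kb over all 62.

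**Figure D2:**
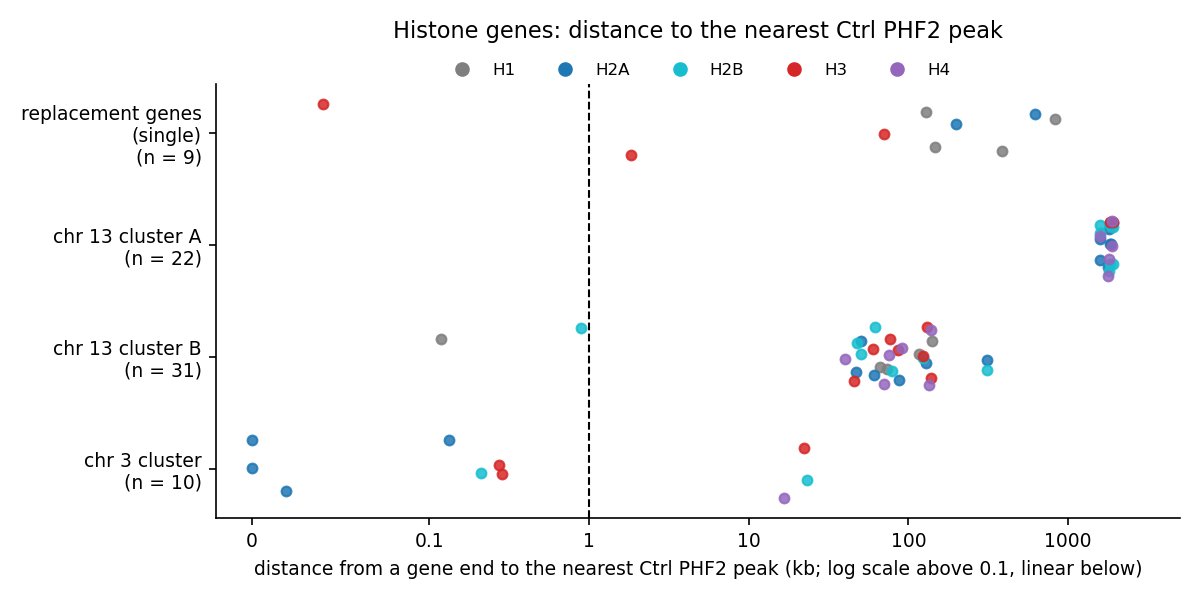
Distance from the nearer end of each of the 72 histone genes to the nearest Ctrl PHF2 peak (x axis in kb, linear below 0.1 and on a log scale above), by cluster (on chromosome 13, A is the lower and B the upper stretch), with points coloured by family and spread vertically only for legibility. Left of the dashed line at 1 kb are 7 of 10 genes of the chromosome 3 cluster, 2 of 31 and 0 of 22 on chromosome 13 and 1 of 9 replacement genes.

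Peaks at histone genes lay near the middle of the Ctrl PHF2 list by median fold and higher by summit tags. Their median fold enrichment was 6.75 (4.88 to 11.5), against 6.45 over the 1151 peaks at gene ends. Their median width was 780 bp (376 to 1075), against 516 bp, and their median summit tags 21 (13 to 24), against 15. The peaks at H3f3a, H2ac20, H2ac19 and H2ac18 were above the upper quartile of the Ctrl PHF2 list in tags (19). Solved local backgrounds were 1.17 at H2ac20, 2.0 at H2ac19 and 1.0 at H2ac18, against a genome-wide 0.361. Those at H3f3a and H1f4 were 0.438 and 0.467. For H2ac19 and H2ac18 the placement of reads is also not known. With 5 peaks these medians only describe them.

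**Figure D3:**
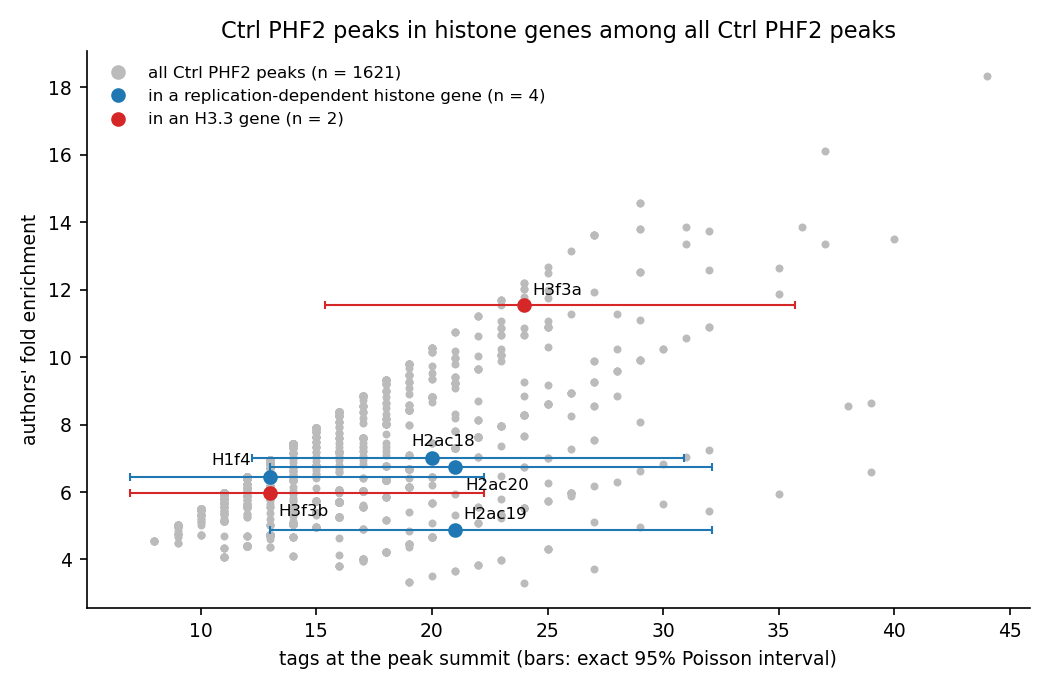
The authors' fold enrichment (y axis) against tags at the summit (x axis) for the 1621 Ctrl PHF2 peaks, with the 6 peaks inside histone genes labelled and their exact 95% Poisson intervals for tags as bars. H3f3a stands at a fold of 11.5, and the other 5 lie between 4.88 and 6.99.

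All 5 peaks counted at histone genes had their summit inside a histone gene, and such a summit lies downstream of that gene's start by construction. The H3f3b summit also lay inside its gene, but the RefSeq start used there lies within the gene, so its side was not fixed. The distance from the annotated RefSeq start was 246 bp in H2ac19, 250 bp in H2ac20, 351 bp in H1f4, 358 bp in H2ac18, 483 bp in H3f3a and 536 bp in H3f3b. The promoter windows printed above met the peaks over only 31 bases in H2ac20 and 10 in H3f3a, and over 0 in the other 4 genes. Of 1063 Ctrl PHF2 peaks with a summit within 1 kb of a start, which were not chosen for lying inside a gene, 827 (77.8%) had it downstream, with a median of 232 bp (quartiles 47.5 and 438.5). The members' median length was 502 bp, against 17169 bp for all genes.

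**Figure D4:**
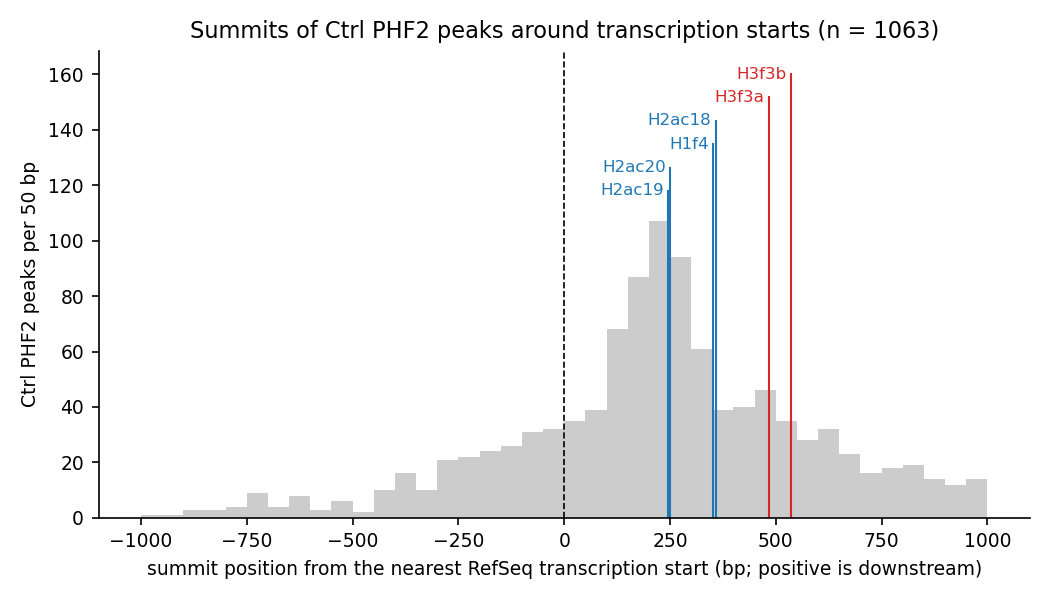
Position of Ctrl PHF2 summits relative to the nearest RefSeq start (x axis in bp, positive is downstream; y axis, peaks per 50 bp) for 1063 peaks, with the 6 summits inside histone genes as lines (blue, replication-dependent; red, H3.3). The 6 lines lie between 246 and 536 bp downstream, a side fixed by choosing summits inside a gene except for H3f3b, whose start lies within the annotated gene.

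In muscle with Acta1 Cre+, the PHF2 antibody gave 0 peaks within 1 kb of a histone gene. That allows a share of up to 4.17% of the 72 members, and only 0.484% of all protein-coding genes had a KO PHF2 peak there, so an absence particular to histone genes was not detectable. The nearest KO PHF2 peak lay 560 kb from a member. None of the 5 Ctrl PHF2 peaks at histone genes overlapped a KO PHF2 peak (zero-count limit 60%, Wilson interval 0 to 43.4). Of the 1165 Ctrl PHF2 peaks with 13 to 24 summit tags, as at histone genes, 71 (6.09%, Wilson interval 4.86 to 7.62) overlapped one. Tags in KO muscle are known only inside KO peaks, and with 1 library of each kind the difference between lists cannot be told apart from a difference between libraries.

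IgG gave 0 peaks at histone genes in both genotypes, with 0.00457% of all genes at a Ctrl IgG peak and 0.0137% at a KO IgG peak. The nearest IgG peak to any member was a KO IgG peak 175 kb from H2ac21. With so few IgG peaks at any gene, these counts of 0 describe no property of histone genes.

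Promoter sequence set members, chiefly the replication-dependent ones, apart from other genes in ways the rule had not used. Of the 72 members, 67 matched the RefSeq promoter table, with 68 windows (H2bc21, H4c14, H3c7, H2bc4 and H3c1 were not in it). A CCAAT box on either strand stood in 56 of 68 windows (82.4%), against 38.2% of all 21263 protein-coding windows. TATAAA stood in 51.5%, against 12.6%, and the octamer, a binding sequence of Oct-1, in 20.6%, against 1.66%. The octamer was in 7 of 15 H2B and 6 of 19 H2A windows, in 1 of 13 H3 windows (H3f3b) and in no H1 or H4 window. Windows of neighbouring members can overlap, as 18 of the 68 did, each in a divergent pair of an H2A and an H2B gene, so that the 14 windows with an octamer held 11 distinct octamer positions. All H2A and H2B windows had a CCAAT box, whereas 3 of 11 H4 windows did.

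CpG number differed between members with and without a peak, though few genes and shared loci stand behind it. Windows of members with a peak had a median of 24.5 CpG (10 windows of 9 genes), and those without a peak 10.5 (58 windows). All protein-coding windows had a median of 13, and those of genes with a Ctrl PHF2 peak within 1 kb of a start 25. The highest counts among members with a peak were 41 in H2ac18, 39 in H3f3a, 36 in H2ac19, 28 in H3c15 and 27 in H3c14. H2ac20 and H2ac21 had 9 each, and H2bc6 had 7 and 12 at its 2 starts. Conversely, H1f10 (40), H2az1 (34), H1f0 (29), H2az2 (27) and H4c1 (27) had many CpG and no peak within 1 kb.

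**Figure D5:**
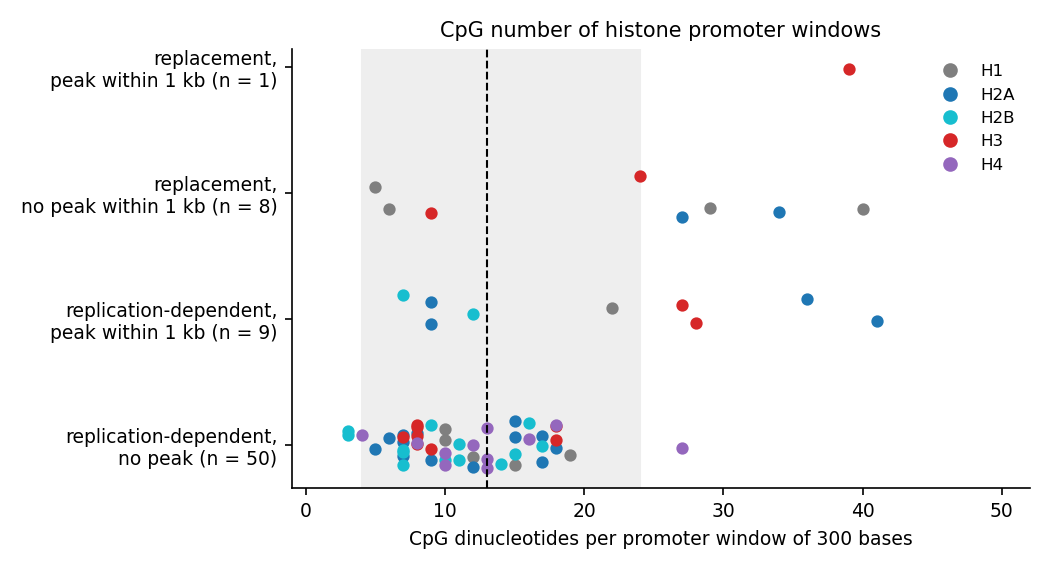
CpG dinucleotides per RefSeq promoter window of 300 bases (x axis) for the 68 windows of histone genes, by class and by presence of a Ctrl PHF2 peak within 1 kb of a gene end, coloured by family; the shaded band holds the central 50% of all 21263 protein-coding windows (4 to 24) and the dashed line their median of 13. The windows at 36 and above with a peak are H2ac18, H3f3a and H2ac19, and most replication-dependent windows without a peak lie below 20.

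Genes that make or handle histones were read from further lists. Of 27 matched genes for transcription and processing of histone messages, 2 (7.41%, Wilson interval 2.06 to 23.4) had a Ctrl PHF2 peak within 1 kb of an end, beside 5.6% of all genes. These were Cpsf2 (fold enrichment 9.20, 18 tags), a subunit of the complex that cleaves pre-mRNA and histone messages, and the transcription factor gene Yy1 (6.58, 16 tags). Npat, the coactivator of replication-dependent histone genes, Slbp, which binds the stem-loop, and Casp8ap2 had no peak. Of 32 histone chaperone and exchange genes, 4 (12.5%, 4.97 to 28.1) had a peak. They were Ruvbl2 (7.20), an ATPase of remodelling complexes, Nap1l4 (6.19), a chaperone of the NAP1 family, Anp32b (5.25) and the elongation factor and chaperone gene Supt6 (5.05). The H3.3 chaperone genes Hira, Daxx and Atrx and the CAF-1 genes Chaf1a and Chaf1b, which serve replication, had no peak. Of 14 matched histone genes with symbols outside the rule, among them H2ax, Macroh2a1, Macroh2a2 and Cenpa, 0 had a peak. The Wilson interval of that share was 0 to 21.5%, so it could not be told apart from 5.6%. The KO PHF2 and IgG lists had 0 genes of these 3 lists at a peak.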

How the data were processed

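CUT&RUN peak lists of 4 libraries, 1 per group (genotype and antibody), were used, and samples were grouped by title. Bowtie2, MACS2 and mm10 are named in the labels, per the submitters' processing notes; the sources used here do not give versions, settings, duplicate handling, the control library or how reads matching several sites were placed. Peak names carry 1 library each, so the authors called peaks per library. Fold enrichment, as deposited, is the ratio of summit pileup to local background that MACS2 reports, and its -log10 p and -log10 q were likewise deposited. A score the authors deposited equals 10 times the -log10 q, cut to an integer, and was used only to check the layout. The column of summit offsets gave summit positions. Reads were not analysed here.

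In MACS2 the fold is (pileup + 1) / (background + 1), and p comes from a Poisson tail. Both unknowns were solved for each PHF2 peak, and 1 factor per list (0.649 in Ctrl, 0.609 in KO) made each summit pileup a whole number of tags within 0.005, for 309 of 309 different fold and p pairs in Ctrl and 84 of 84 in KO. Where more than 1 solution was whole, those below the genome-wide background were dropped and the nearest to a whole number was kept. The next best factor gave whole tags for 154 of the 309 pairs in Ctrl and 52 of the 84 in KO. The method recovered tags of peaks simulated for testing. Those peaks had only a few set background values, so they do not cover every background in the data. Poisson, Wilson (95%) and zero-count (3 counts) limits cover counting error only. Over genes they treat neighbours that share a peak as independent, which makes them too narrow.

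Genes and promoter windows came from RefSeq tables of GRCm38.p6, the assembly behind mm10, on the autosomes, X and Y. Strand and starts come from the promoter table. Starts are 1-based and overlap means at least 1 bp. Clusters join members within 500 kb. With 1 library per group no test was run.

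Histone genes and all lists were chosen with earlier results of these data known. The named genes are all members with a peak in any list, all replacement members, the members nearest to a peak outside the window, and up to 6 genes per further list. Some others were named after their values were seen: H4c14, H3c13, H2bc18, members cited for their family, promoter or distance, pairs with near-identical promoters, and genes without a peak in the further lists. H3f5 and Symk, from those lists, were not matched in the gene table. Alternatives were other windows, the summit alone, gene bodies, stricter q, the stronger 50% of each list, joined loci, a shortened Ctrl list, a common p, merged peaks and other overlap rules. Distance to RefSeq starts was an alternative added once the data had been seen. Software: matplotlib 3.10.9, pandas 2.3.3, SciPy 1.17.1 and NumPy 2.4.6 ran under Python 3.11.15.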

Additional observations from a re-analysis of the deposited data

How the results depend on the processing

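Of 70 alternatives over the counts of members, loci and peaks, 61 stayed within 1.5 times the count reported and 9 did not. The 61 include KO PHF2, IgG and KO overlap counts of 0, which stricter settings could not change. All 9 that moved were Ctrl PHF2 counts, so 61 of 70 overstates how stable those counts were. Raising the limit to a -log10 q of at least 5 left 6 members with a Ctrl PHF2 peak, 3 distinct peaks and 5 replication-dependent members, because the H2ac19 and H1f4 peaks fall below it. Joining neighbours into loci gave 5. Shortening the Ctrl PHF2 list to as many peaks as KO PHF2, by fold enrichment, left 1 member, H3f3a. Replacement genes with a peak rose from 1 to 2, through H3f3b, with a 2 kb window, a 5 kb window, a count of peaks in the gene or within 1 kb, and distance to RefSeq starts, the last chosen after seeing the data. KO PHF2 and IgG counts were 0 under every alternative run. No paired analysis was possible because there was 1 library per group, which also meant that leaving out replicates could not be tried. Depth was 13 to 24 tags at the summits of the 5 peaks, too few to order them by tags.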
